A study of Homo sapiens with 4 samples.

Results

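Homologous recombination, the Fanconi anaemia pathway and mismatch repair were followed through 31 mRNAs, chosen by gene symbol and matched to array probes through the accession listed for each probe. Sorted by role in 7 groups, they were BRCA1, BARD1, PALB2 and BRCA2 of the BRCA1-BRCA2 axis; RAD51C, XRCC2, XRCC3, RAD51AP1 and RAD54L, which act in strand exchange; MRE11, RAD50, NBN, RBBP8, EXO1, BLM and WRN of DNA end resection and RecQ unwinding; FANCA, FANCB, FANCC, FANCE, FANCF, FANCG, FANCL and FANCM of the Fanconi core complex; FANCD2, FANCI and the helicase BRIP1; MSH3, MSH6 and PMS2 of mismatch repair; and PARP1. All 31 were among the 24136 named genes on the array, with 49 probes. Detection on an array meant that a share of 0.5 or more of a probe's spots stood well above background, and probes detected on both TIA1 RIP arrays or both total RNA arrays were analysed, which left 44 probes for 29 of the 31 genes. The BRCA2 probe was not detected on any of the 4 arrays, and the BRIP1 probe was detected on TIA1 RIP replicate 1 and total RNA replicate 1 alone, so neither gene is evaluated further.

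The cells were KYSE180, an established cell line from human esophageal squamous cell carcinoma (ESCC), and no treatment or genetic change is named for either group. In TIA1 RIP (n = 2 arrays), RNA was recovered with an anti-TIA1 antibody from cytoplasmic lysates by ribonucleoprotein immunoprecipitation (RIP). In total RNA (n = 2 arrays), the input RNA of the same line was hybridized, and the sources used here do not state whether it came from the cytoplasm or from whole cells. Each array was labelled from 0.2 μg of RNA, so a signal is a share of the labelled RNA and not an amount per cell. IgG immunoprecipitates were not analysed here. Nothing states that the arrays of a group came from separate cultures, so the p-values measure the spread between these arrays, which may be technical, and their number limits the precision.

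Homologous recombination copies an intact sister sequence into a broken DNA molecule: MRE11, RAD50, NBN and RBBP8 start to trim the break, EXO1 and BLM extend the trimming, and BRCA1, PALB2 and BRCA2 prepare the exposed strand for strand exchange. The Fanconi core complex attaches ubiquitin to FANCD2 and FANCI where strands are crosslinked, and the MSH3, MSH6 and PMS2 proteins form complexes that recognise and process mispaired bases. TIA1 binds uridine-rich stretches of RNA, often in 3′ untranslated regions (UTRs), and holds bound mRNAs back from translation under stress.

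Signals are given on the log2 scale relative to the 75th percentile of the same array. Before this scaling, that percentile was a signal of 1514 and 1271 on the TIA1 RIP arrays and 714 on total RNA replicate 1, but 69.9 on total RNA replicate 2. Between 45.8% and 48.4% of the spots on the other arrays were well above background, against 32.2% on total RNA replicate 2. That array therefore stood apart, and each result is given against each total RNA array as well as against their mean. The file headers give 1 slide and 1 scan for all 4 arrays. The labelled cell type was checked with 8 squamous epithelial markers, such as KRT5 and TP63, of which 8 were detected on the other arrays and 7 on total RNA replicate 2. Of 6 fibroblast markers, 1 to 2 were detected on an array, of 5 leukocyte markers 3, and of 4 endothelial markers 1 to 2.

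The sequence of the 3′UTR, taken from GENCODE transcripts on GRCh37, was not used to choose the members. Their 3′UTRs had a median of 33.7% U, beside 29.4% over the genes tested. UUUUU occurred in the 3′UTR of 29 of the 31 members (93.5%), against 78.4% of the genes tested. Matches per kb, counted without overlap, were 5.38 and 4.17. AUUUA occurred in 27 (87.1%) against 69.7%. In the first 300 bases of the 3′UTR, UUUUU occurred in 18 of the 25 members with a 3′UTR of that length (72%), against 52.8% of such genes. XRCC3 and FANCB had no UUUUU in the 3′UTR. The U-richest 30 bases of the 3′UTR are shown 5′ to 3′, with runs of at least 5 U in capitals, for FANCC, RAD51AP1 and BARD1, which with NBN (ranked after FANCC, not shown) stood highest in TIA1 RIP against total RNA replicate 1, and for the 3 mRNAs that stood lowest:
FANCC: ucuguaauuuguugucuaUUUUUUcauucu
RAD51AP1: gguguuuauauuugauuuguguuuauauuu
BARD1: acuugccUUUUUUUUUUUUUUUUUUUUagu
MSH3: auuuacuugauaUUUUUauuuguuucaguu
MRE11: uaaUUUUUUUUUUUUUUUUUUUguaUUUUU
BRCA1: uugcuuucuuugaggugaUUUUUUUccuuu
On GRCh37 these lie at chr9:97861361-97861390 on the minus strand for FANCC, chr12:4668208-4668237 on the plus strand for RAD51AP1, chr2:215593003-215593032 on the minus strand for BARD1, chr5:80171992-80172021 on the plus strand for MSH3, chr11:94149848-94149877 on the minus strand for MRE11 and chr17:41196541-41196570 on the minus strand for BRCA1. The stretches held 19, 19 and 23 U in FANCC, RAD51AP1 and BARD1, with 24 U in NBN, and 19, 26 and 19 U in MSH3, MRE11 and BRCA1, so the U content of the mRNAs at either end overlapped. The rank of FANCC rests on the mean of 3 probes, with log2 ratios to total RNA replicate 1 of 1.85, -0.33 and 0.75. The first is for a transcript that shares 0 exonic bases with the FANCC mRNA shown. Over the 29 members, the U percentage of the 3′UTR had a Pearson r of 0.26 and a Spearman rho of 0.27 with the log2 ratio of the TIA1 RIP mean to total RNA replicate 1 (all genes 0.08 and 0.07). UUUUU per kb had 0.08 and 0.05 (all genes 0.06 and 0.10). Over total RNA replicate 2 the U percentage had 0.32 and 0.30 (all genes 0.62 and 0.66), and UUUUU per kb 0.16 and 0.15 (all genes 0.35 and 0.48). These are descriptions across genes that share the same arrays, and a match to these letters is not a binding site.

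None of the 29 members passed the test between TIA1 RIP and total RNA (0 at an adjusted p-value under 0.05 by limma, with 0.00% of the 13038 genes tested called higher and 0.00% lower). None passed an unadjusted p-value under 0.05 either, against 1.10% of all genes higher and 4.02% lower. The adjusted p-values of the members ran from 0.776 to 0.9995. The median log2 ratio of the members was 0.29, beside -0.04 over all genes tested, but it was -0.41 against total RNA replicate 1 (all genes 0.07) and 1.07 against total RNA replicate 2 (all genes -0.29). The 2 TIA1 RIP arrays were close for these mRNAs, with an SD of the log2 difference between them of 0.43 (all genes 0.89). Between them 1 member differed by over 2-fold. The total RNA arrays differed with an SD of 1.78, beside 2.0 over all genes, so this spread was not particular to the members. Between the total RNA arrays 17 of the 29 members differed by over 2-fold, and the share of all genes that did was not counted. With total RNA replicate 1 left out, limma called 10 members higher (34.5%, beside 14.2% of all genes) and 1 lower (3.45%, beside 15.7%), and with total RNA replicate 2 left out it called 0 (3 at an unadjusted p-value under 0.05). All 29 members were detected on total RNA replicate 1 but 14 of them on total RNA replicate 2. On the latter 51.7% of the members were not detected, beside 26.1% of the genes tested. These 15 members passed the filter on the TIA1 RIP arrays alone, so a count over the members that passed is no support for enrichment.

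**Figure D1:**
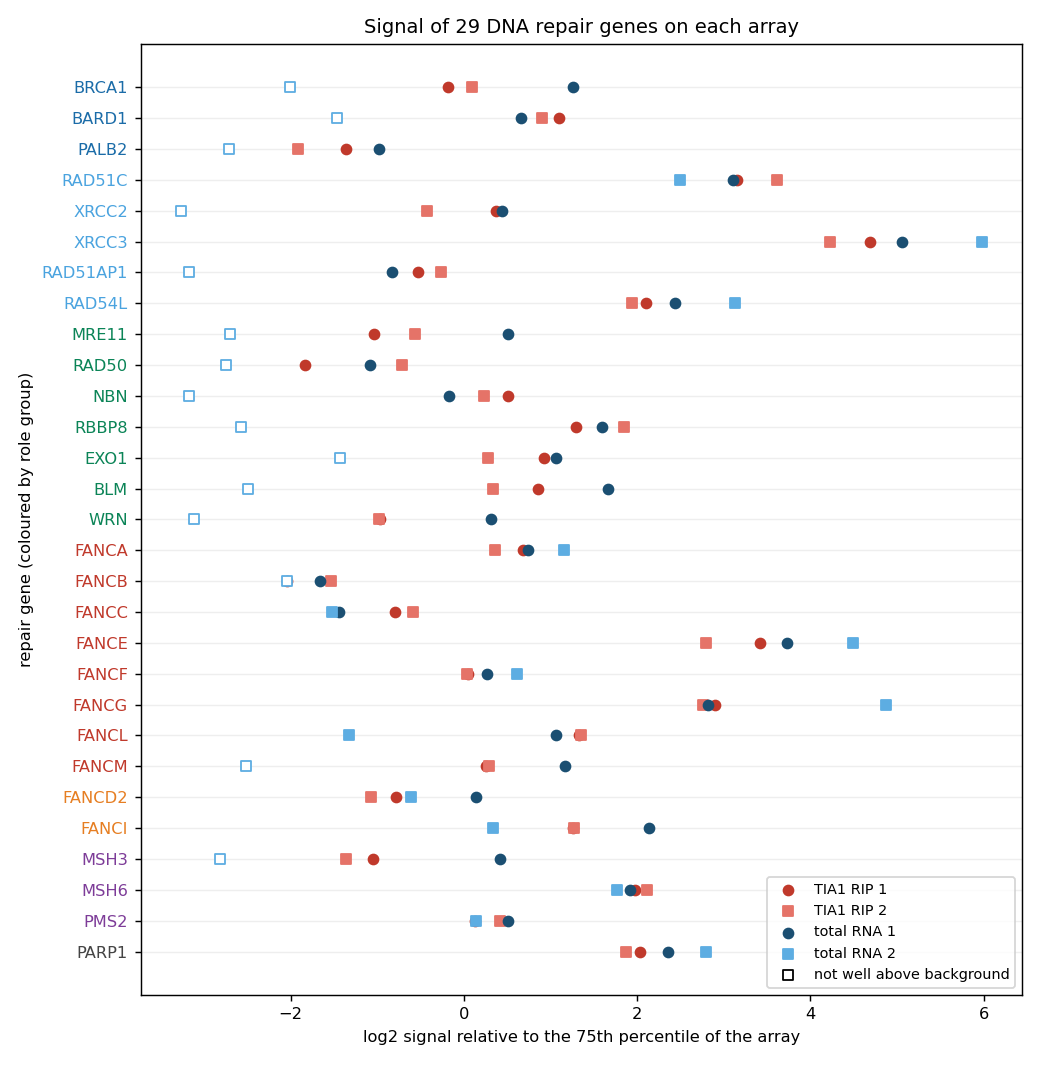
Log2 signal of the 29 members that passed the filter, relative to the 75th percentile of each array (horizontal axis), with 1 row per gene coloured by role group and 1 point per array, open where the probes were not well above background. Red TIA1 RIP points lie close together, and light blue total RNA replicate 2 points are open for 15 genes and lie to the left of the other arrays for most of these.

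In the BRCA1-BRCA2 axis, BARD1 was the mRNA that stood above total RNA on both TIA1 RIP arrays. BARD1, the partner of BRCA1 in its ubiquitin ligase, had log2 signals of 1.09 and 0.90 in TIA1 RIP and 0.66 and -1.46 in total RNA replicates 1 and 2, the last not well above background. Its log2 ratio was 1.40 ± 0.95 (SE; adjusted p = 0.776, limma). BRCA1 had signals of -0.19 and 0.10 in TIA1 RIP and 1.25 and -2.01 in total RNA, so both TIA1 RIP arrays lay between the total RNA arrays. PALB2, the bridge between BRCA1 and BRCA2, showed the same order of arrays, with -1.37 and -1.91 in TIA1 RIP and -0.99 and -2.71 in total RNA, and the lowest log2 ratio of the group (0.21 ± 0.90). On total RNA replicate 2 none of these 3 mRNAs was well above background. There the TIA1 RIP mean was at least 4.33-fold higher for BARD1 and at least 2.10-fold higher for BRCA1, and PALB2 had no bound over 1. The limit taken was the higher of the lowest detected signal on that array and the gene's own. It makes all bounds given here approximate, as that lowest signal was -1.12 and an undetected FANCF probe read -0.79.

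Among the strand exchange factors, RAD51C and RAD51AP1 were above both total RNA arrays and XRCC3 and RAD54L below both. RAD51C had signals of 3.15 and 3.61 in TIA1 RIP against 3.11 and 2.5 in total RNA, all well above background, a log2 ratio of 0.58 ± 0.79. The margin over total RNA replicate 1 was narrower than the gap between the TIA1 RIP arrays. RAD51AP1, which stimulates strand invasion, had -0.53 and -0.26 against -0.83 and -3.18, with the last not well above background, and the highest log2 ratio of the group (1.60 ± 0.99, adjusted p = 0.776 by limma). XRCC2, which works in a complex with RAD51C, had 0.37 and -0.43 against 0.44 and -3.27, so its TIA1 RIP arrays lay between the total RNA arrays, and the bound against total RNA replicate 2 was at least 2.13-fold higher.

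XRCC3, which pairs with RAD51C in another complex, had signals of 4.68 and 4.22 in TIA1 RIP against 5.05 and 5.98 in total RNA and the lowest log2 ratio of all members (-1.06 ± 0.81). This order came from the mean of 2 probes. The probe for a transcript annotated for nonsense-mediated decay, which shares exonic bases with KLC1, gave -1.94, and the probe for the RefSeq mRNA gave -0.19, with TIA1 RIP signals of 3.77 and 2.72 that overlapped total RNA at 3.17 and 3.71. RAD54L, a DNA translocase, had 2.10 and 1.94 against 2.43 and 3.13, below both total RNA arrays on 1 probe (log2 ratio -0.76 ± 0.79).

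The 7 mRNAs of end resection and RecQ unwinding were all undetected on total RNA replicate 2 and all detected on the other arrays. RBBP8, which activates the MRE11 nuclease, had the highest log2 ratio of all members (2.06 ± 1.35), from signals of 1.29 and 1.85 in TIA1 RIP and 1.59 and -2.57 in total RNA. The TIA1 RIP arrays lay on either side of total RNA replicate 1, where the ratio was -0.02, and their mean was at least 6.43-fold higher than total RNA replicate 2. NBN, the subunit that recruits the ATM kinase, was the single mRNA of the group above both total RNA arrays. It had signals of 0.50 and 0.23 in TIA1 RIP and -0.18 and -3.17 in total RNA, a log2 ratio of 2.04 ± 1.11 with the lowest unadjusted p-value of the members (0.107; adjusted p = 0.776, limma).

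MRE11, the nuclease of this complex, had the lowest ratio of the group (0.29 ± 1.15), with signals of -1.04 and -0.57 in TIA1 RIP between 0.51 and -2.70 in total RNA. RAD50, its structural partner, had -1.84 and -0.72 against -1.08 and -2.75, and was the member whose TIA1 RIP arrays differed by over 2-fold. The nuclease EXO1 had 0.93 and 0.27 against 1.07 and -1.43. The BLM helicase had 0.85 and 0.34 against 1.66 and -2.49, and the WRN helicase had -0.97 and -0.98 against 0.31 and -3.12. In EXO1, BLM, WRN and MRE11 both TIA1 RIP arrays thus lay between the total RNA arrays. Bounds against total RNA replicate 2 were at least 3.28-fold for EXO1, 3.27-fold for BLM, 2.79-fold for NBN, 1.24-fold for MRE11 and 1.10-fold for WRN, and RAD50 had no bound over 1. The TIA1 RIP means of MRE11 (-0.80) and WRN (-0.97) were under the -0.79 of the undetected FANCF probe, so their bounds are not firm.

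Of the 8 mRNAs of the Fanconi core complex, 6 were detected on total RNA replicate 2, and the members fell on both sides. FANCL, the ubiquitin ligase subunit, had signals of 1.33 and 1.35 in TIA1 RIP and 1.07 and -1.32 in total RNA, the highest ratio of the group (1.47 ± 0.99, adjusted p = 0.776 by limma). Its 2 probes gave 1.36 and 1.58, and 1 of them was detected on total RNA replicate 2. FANCC had -0.79 and -0.59 against -1.45 and -1.53, a ratio of 0.80 ± 0.77, above both total RNA arrays by more than the gap between arrays of a group. This separation again came from the mean over probes. A probe for a transcript that shares 0 exonic bases with the main FANCC mRNA was not detected in either total RNA array and gave 1.60, and on the 2 RefSeq probes the TIA1 RIP signals of 0.18 and -0.36 overlapped total RNA at -0.31 and -0.67.

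Below both total RNA arrays were FANCE, FANCA and FANCF, the first an adaptor that contacts FANCD2. FANCE had signals of 3.42 and 2.80 in TIA1 RIP against 3.73 and 4.49 in total RNA (log2 ratio -1.0 ± 0.81). FANCA had 0.68 and 0.36 against 0.74 and 1.15 (-0.43 ± 0.78), and FANCF had 0.05 and 0.04 against 0.27 and 0.61 (-0.40 ± 0.77). The probes of FANCA and of FANCF disagreed. The 3 FANCA probes gave log2 ratios from -1.29 to 0.54, with 1 higher and 2 lower, and the FANCF probes gave -0.97 and 0.18. The FANCF probe at 0.18 was not detected on total RNA replicate 2. FANCG, a scaffold subunit, had the lowest ratio of the group (-1.01 ± 0.94), from 2.90 and 2.76 against 2.82 and 4.87. Its TIA1 RIP arrays lay on either side of total RNA replicate 1, and their mean had a log2 ratio of -2.04 to total RNA replicate 2.

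FANCM and FANCB were not detected on total RNA replicate 2. FANCM, a DNA translocase that anchors the core complex on DNA, had signals of 0.25 and 0.29 against 1.16 and -2.51 (log2 ratio 0.95 ± 1.24). Its TIA1 RIP mean was at least 2.62-fold above total RNA replicate 2 and below total RNA replicate 1. FANCB, encoded on the X chromosome, had -2.04 and -1.53 against -1.66 and -2.04, so the groups overlapped, and it had no bound over 1.

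The substrates of the core complex were lower against total RNA replicate 1. FANCD2 had signals of -0.79 and -1.07 in TIA1 RIP against 0.14 and -0.61 in total RNA, below both arrays, with a log2 ratio of -0.70 ± 0.80. Its probes gave -1.90 and 0.51, and the second was not detected on total RNA replicate 2. Against total RNA replicate 1 both were lower, at -1.91 and -0.24. Pseudogene copies of FANCD2 also make its signal uncertain. FANCI had the higher ratio of this group (0.03 ± 0.90), with 1.26 and 1.27 between 2.14 and 0.33.

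In mismatch repair the 3 log2 ratios, from the mean of each gene's probes, lay close to 0. The total RNA arrays stood far apart for MSH3 and for the RefSeq mRNA probe of MSH6. MSH6, which detects single mispairs, had signals of 1.98 and 2.11 in TIA1 RIP and 1.92 and 1.76 in total RNA, above both arrays with a log2 ratio of 0.21 ± 0.77. This rested on 2 probes that moved in opposite directions. The probe for the MSH6 RefSeq mRNA had 3.50 and 3.20 in TIA1 RIP between 4.42 and 1.23 in total RNA, and a probe for a transcript sharing 0 bases with it had 0.45 and 1.03 between -0.59 and 2.29. MSH3, which acts on larger loops, had -1.05 and -1.36 between 0.41 and -2.82, the last not well above background. It had the lowest ratio of all members against total RNA replicate 1 (-1.61), where the mean over both total RNA arrays gave 0.00. PMS2, the nuclease subunit, had 0.13 and 0.41 against 0.51 and 0.13 (-0.05 ± 0.78). Of its 6 probes 1 was higher and 5 lower, from -0.46 to 0.92, and the genome holds near-identical PMS2 pseudogenes, so this signal is uncertain.

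PARP1, which marks strand breaks with poly(ADP-ribose), had signals of 2.03 and 1.87 in TIA1 RIP against 2.36 and 2.80 in total RNA, below both arrays and well above background on all 4. Its log2 ratio was -0.63 ± 0.78. The probes for its RefSeq mRNA gave -1.60 and 0.34, so the direction was not shared by both.

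Counted over arrays, both TIA1 RIP arrays lay above both total RNA arrays in 7 members (24.1%; BARD1, RAD51C, RAD51AP1, NBN, FANCC, FANCL and MSH6), against 19.4% of the genes tested. They lay below in another 7 (24.1%; XRCC3, RAD54L, FANCA, FANCE, FANCF, FANCD2 and PARP1), against 21.7%. Both shares are near those of all genes. Among genes detected on all 4 arrays, 4 of 14 members lay above, beside 15.5% of such genes, and 7 of 14 below, beside 27.4%. With RefSeq mRNA probes alone, a choice made after seeing the data, 5 members lay above (beside 20.9% of all genes) and 6 below (beside 20.4%), without MSH6, FANCC and XRCC3.

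The study compared enrichment in TIA1 RIP with that of GAPDH mRNA, a glycolytic enzyme transcript used as the reference, at a threshold of 2.5-fold. It asked for this on the arrays and also in RIP followed by sequencing. The counts here use the arrays alone, so they are not the study's own selection. GAPDH had log2 signals of 6.49 and 6.69 in TIA1 RIP and 7.67 and 9.63 in total RNA, so its own ratio was -2.06, and a gene with no difference on the 75th percentile scale is above GAPDH. On the group means, 25 of the 29 members (86.2%) were past 2.5-fold above GAPDH, beside 72.4% of the genes tested, and 0 were past 2.5-fold below, beside 1.62%. Among the genes detected on all 4 arrays, 10 of 14 members were past it, beside 65.3%. XRCC3, RAD54L, FANCE and FANCG were the 4 that stayed under 2.5-fold, at 1.99-fold, 2.45-fold, 2.08-fold and 2.07-fold. The values of 17.4-fold for RBBP8, 17.2-fold for NBN and 12.7-fold for RAD51AP1 take in a total RNA replicate 2 signal that was not well above background, and over total RNA replicate 1 RBBP8 was at 1.84-fold and 2.35-fold. The nearest to the threshold above it was FANCD2 at 2.57-fold.

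The count differed between the total RNA arrays. Against total RNA replicate 1, 5 of 29 members (17.2%) were past 2.5-fold on TIA1 RIP replicate 1, beside 46.0% of all genes, and 5 on TIA1 RIP replicate 2, beside 40.0%. Against total RNA replicate 2 the counts were 28 (96.6%, beside 76.7%) and 26 (89.7%, beside 77.7%). Only RAD51AP1, NBN and FANCC were past 2.5-fold in all 4 pairs of arrays (10.3%, beside 26.2% of all genes). For NBN the folds were 3.63 and 2.61 over total RNA replicate 1 and 113 and 81.1 over total RNA replicate 2. For RAD51AP1 they were 2.78 and 2.91 against 55.3 and 57.7. FANCC, at 3.56 and 3.57 against 14.7 and 14.7, was past it in 3 of the 4 pairs on its RefSeq probes alone. For the 15 members undetected on total RNA replicate 2 the folds over it rest on signals that were not well above background. The folds of FANCC over it do so in part, as 1 of its 3 probes was detected there.

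**Figure D2:**
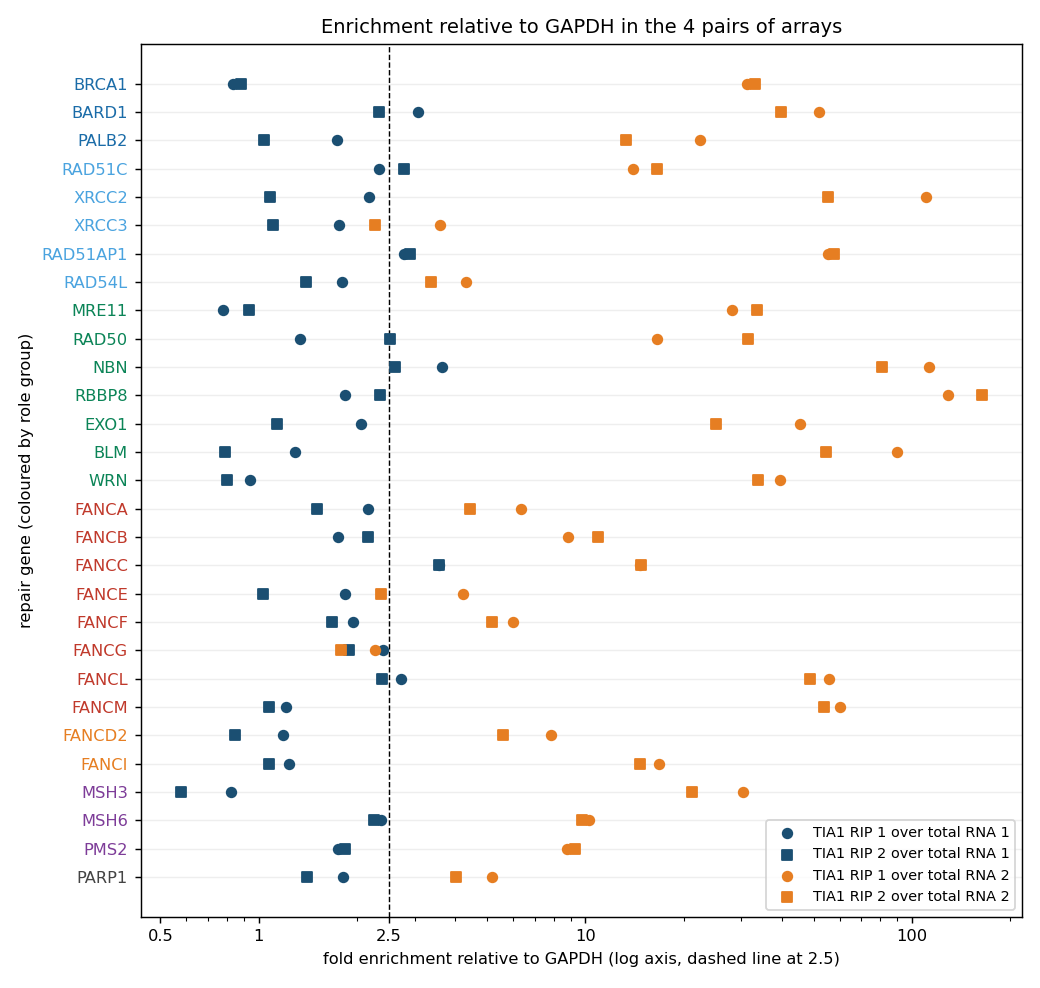
Fold enrichment of the 29 members relative to GAPDH (horizontal log axis) in each pair of a TIA1 RIP and a total RNA array, with 1 row per gene coloured by role group, blue points over total RNA replicate 1, orange points over total RNA replicate 2 and a dashed line at 2.5-fold. Most blue points lie left of the line and most orange points right of it, and RAD51AP1, NBN and FANCC have all 4 points to its right.

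Of the 13038 genes tested, 9641 were detected on total RNA replicate 2. The role groups differed in how many mRNAs were detected there: 0 of 7 in end resection and RecQ unwinding, 0 of 3 in the BRCA1-BRCA2 axis, 3 of 5 strand exchange factors, 6 of 8 in the Fanconi core complex, 2 of 2 in FANCD2 and FANCI, 2 of 3 in mismatch repair, and PARP1. Over total RNA replicate 1, on which every member was detected, the TIA1 RIP mean had a median log2 ratio of -0.47, -0.65, -0.41, -0.17, -0.97 and -0.24 in these groups and -0.41 for PARP1. By pathway it was -0.46 for the 15 homologous recombination members and -0.22 for the 10 Fanconi members. Over total RNA replicate 2 the median was 0.88 for the strand exchange factors, -0.16 in the Fanconi core complex, 0.31 for FANCD2 and FANCI, 0.28 in mismatch repair and -0.85 for PARP1, and no median is given for resection and the BRCA1-BRCA2 axis, whose signals there were not well above background. These medians carry no test.

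For the members as a whole, the TIA1 RIP mean was above total RNA replicate 1 in 8 of 29 (27.6%, beside 53.1% of all genes) and above total RNA replicate 2 in 21 (72.4%, beside 44.9%). No member was over 2-fold higher than total RNA replicate 1 (14.0% of all genes were), and 6 were over 2-fold lower (20.7%, beside 12.9%): BRCA1, MRE11, BLM, WRN, FANCD2 and MSH3. Over total RNA replicate 2, 15 were over 2-fold higher (51.7%, beside 28.2%) on the measured signals, but 14 of these were not detected there, and 8 of the 14 had a bound over 2-fold. Another 4 were over 2-fold lower (13.8%, beside 36.7%): XRCC3, RAD54L, FANCE and FANCG.

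**Figure D3:**
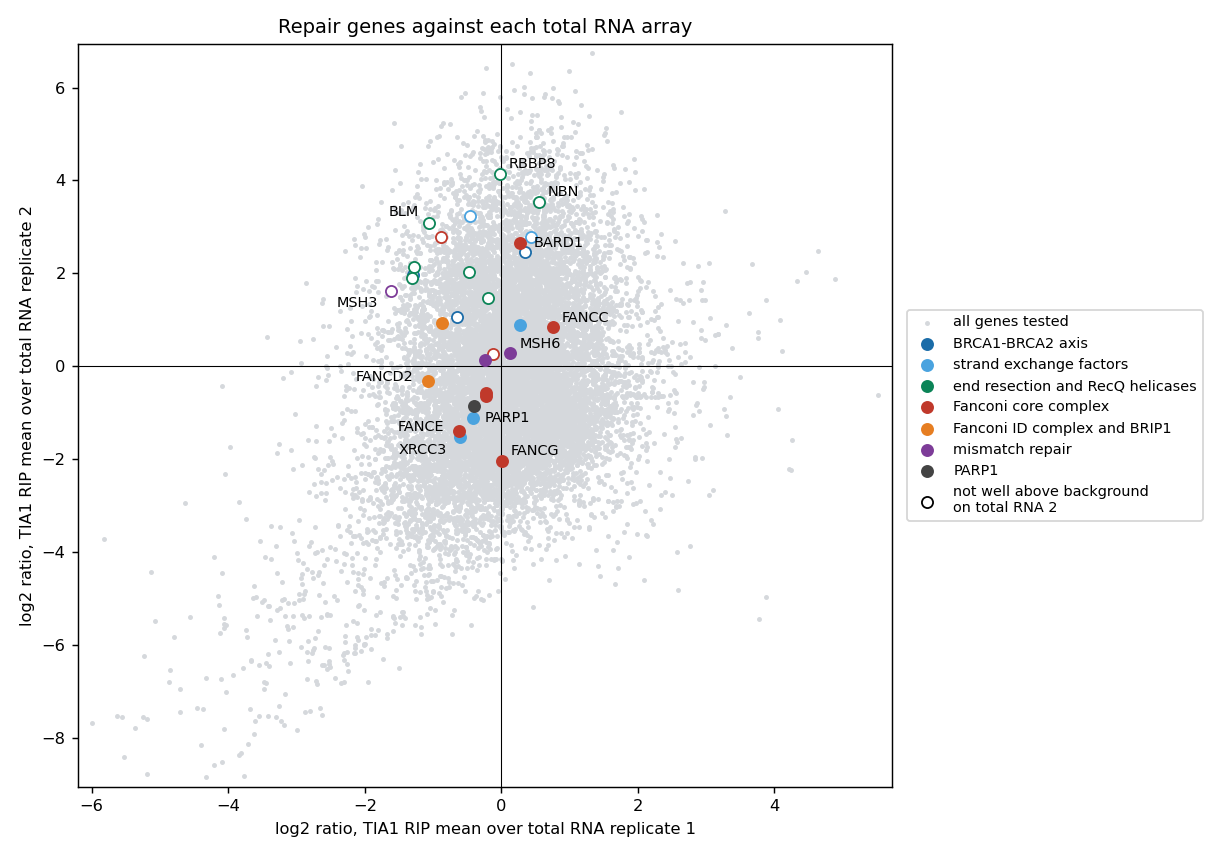
Log2 ratio of the TIA1 RIP mean over total RNA replicate 1 (horizontal) and over total RNA replicate 2 (vertical) for all genes tested in grey and for the 29 members coloured by role group, open where not well above background on total RNA replicate 2. Members spread from -2.04 (FANCG) to 4.14 (RBBP8, open) on the vertical axis and from -1.61 (MSH3) to 0.76 (FANCC) on the horizontal axis.

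The base composition of the mRNAs moved with the split between the total RNA arrays. Members were AU-rich transcripts, with a median GC content of 41.8% over the 29, beside 49.95% over genes tested, and 21 of the 29 were under 45% GC. Over the 29 members, 15 of them not well above background on total RNA replicate 2, GC content and the log2 ratio of that array to replicate 1 had a Pearson r of 0.78 and a Spearman rho of 0.765, beside 0.70 and 0.72 over 11614 genes with a GC value. With the TIA1 RIP mean over total RNA replicate 2, GC content had r = -0.82 and rho = -0.83 (all genes -0.72 and -0.75), and over total RNA replicate 1 r = 0.03 and rho = -0.07 (all genes -0.06 and -0.05). These are descriptions over genes on the same arrays.

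By class of GC content, total RNA replicate 2 was above replicate 1 in 1 of the 21 members under 45% GC (the median difference was -2.39, beside -1.57 over all genes of that class) and 6 of the 21 were detected there (49.0% of all genes of that class were). In the 4 members from 45% to 55% GC (RAD54L, FANCC, PMS2 and PARP1) it was above in 2, and in the 4 at 55% or more (XRCC3, FANCA, FANCE and FANCG) in all 4, with a median difference of 0.85 beside 1.69. Against total RNA replicate 1 the class medians of the TIA1 RIP ratio were -0.46, -0.32 and -0.41. The part of base composition in these results was not tested. Transcript length had a median of 4592 bases over the 31 members, beside 3100 over genes tested. With the ratio over total RNA replicate 1 it had r = -0.46 and rho = -0.44 among the 29 members, beside -0.16 and -0.13 over 11576 genes. With the ratio over total RNA replicate 2 the signs were opposite, at r = 0.30 and rho = 0.31, beside 0.14 and 0.20.

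**Figure D4:**
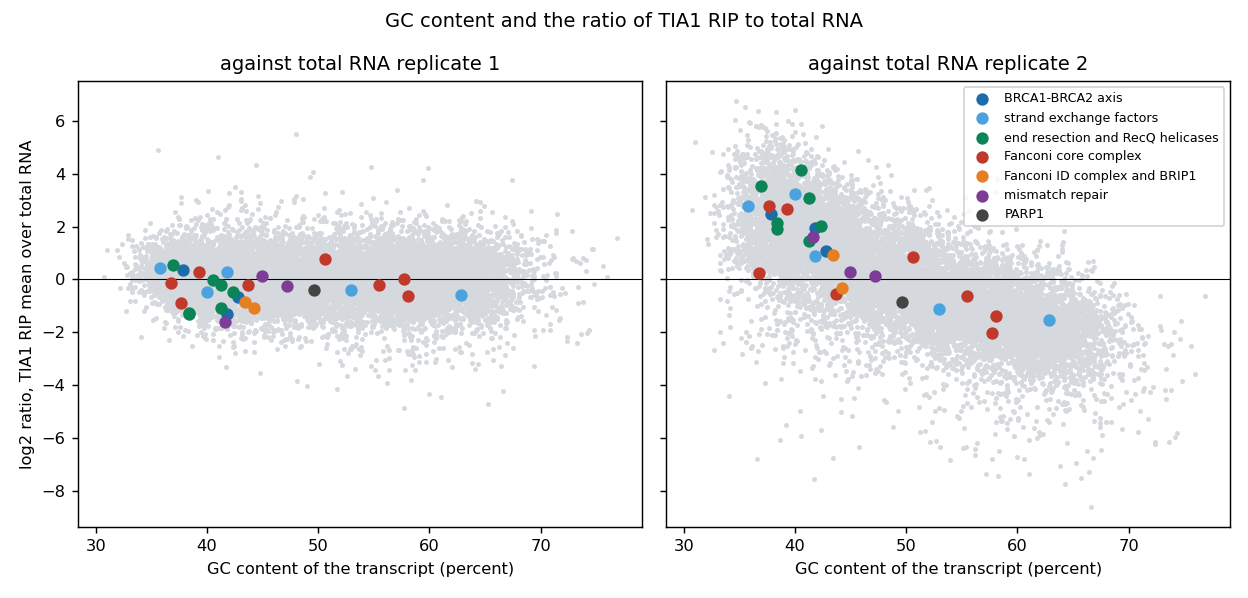
Log2 ratio of the TIA1 RIP mean over total RNA replicate 1 (left) and replicate 2 (right), vertical, against the GC percent of the transcript, horizontal, for all genes with a GC value in grey and the 29 members coloured by role group. The members lie along a downward slope on the right (r = -0.82) and show none on the left (r = 0.03).

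Other repair genes, 106 by list, were set beside the members. Of these, 97 passed the filter, 0 passed the adjusted threshold of limma, and 1 was lower at an unadjusted p-value under 0.05 (RECQL4, a RecQ helicase, log2 ratio -2.63). Past 2.5-fold above GAPDH were 76 of 97 (78.4%, beside 72.4% of all genes), and in all 4 pairs 20 of 97. Their median log2 ratio was 0.30, beside 0.29 for the members, with -0.12 over total RNA replicate 1 and 0.48 over replicate 2. The median over total RNA replicate 1 was negative in each of the lists, from -0.70 in other mismatch repair genes (7 passed) to -0.01 in base excision repair (18 passed). Over total RNA replicate 2 it ran from 0.16 in base excision repair to 1.67 in nucleotide excision repair (21 passed). It was 0.46 in other homologous recombination genes (29 passed), 0.85 in other Fanconi genes (10 passed) and 1.02 in non-homologous end joining (12 passed). In the order given, 2, 8, 11, 2 and 6 of the genes that passed were not detected on total RNA replicate 2. These medians thus take in signals that were not well above background and do not show a difference in enrichment between the lists.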

How the data were processed

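The authors scanned 4 single-colour Agilent whole human genome arrays of KYSE180 RNA and deposited, per the file headers, Feature Extraction 10.7.1.1 output on design build GRCh37. For each spot the deposited files hold a background-subtracted processed signal intensity, raw median intensities and, as other columns deposited per spot, quality flags. They are not normalized between arrays. The authors went on in GeneSpring, and a test for this step is not given in the sources used here.

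From 58717 spots per array, 299 to 382 were removed for uneven or deviant flags. Processed signals were put on the log2 scale, the 75th percentile of the array was subtracted and spots of a probe were averaged. Of 50599 probes, 34510 were named through RefSeq accessions (table of a later assembly, names only) or GENCODE transcripts on GRCh37. The filter kept 20099 probes, and probes of a symbol were averaged to 13038 genes. The lmFit and eBayes functions of limma 3.58.1 (R 4.3.3) compared TIA1 RIP with total RNA, with Benjamini-Hochberg adjustment over all genes tested and a threshold of 0.05. The code was run on simulated data with less spread between arrays than here. That run therefore does not show how many true differences would be found in these data. Enrichment relative to GAPDH was counted past 2.5-fold with no test. The main GENCODE transcript of each gene (MANE Select, else Ensembl canonical, else principal) gave length, GC content and 3′UTR. Figures used matplotlib 3.10.9 in Python 3.11.15, and tables pandas 2.3.3.

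The members, the lists, the role groups and the tests were chosen with earlier results of these data known. Values on every array were given for members whose groups did not overlap, the highest and lowest of each role group and members whose probes differed in sign, and in practice for all 29. A single gene of the lists of other repair genes was left out and is not reported here. The rest of those genes were named only if highest or lowest of their list. Alternatives were normexp background correction (offset 50) on raw median signals, quantile normalization, scaling to the median gene, stricter and no detection filters, the brightest probe, ACTB or the median gene as the reference, folds of 2 and 4, the replicate number as a block and each array left out. The use of RefSeq mRNA probes only was chosen after seeing the data.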

Additional observations from a re-analysis of the deposited data

How the results depend on the processing

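limma called 0 of the 29 members in every alternative except without total RNA replicate 1, with 0 to 3 at an unadjusted p-value under 0.05 in the others. The number called without 1 array ran from 0 to 11. Without total RNA replicate 1 it was 11, with 10 higher (BRCA1, BARD1, XRCC2, RAD51AP1, NBN, RBBP8, BLM, WRN, FANCL and FANCM) and 1 lower (FANCG). That fit assumes that the lone total RNA replicate 2 varies like the TIA1 RIP arrays, and 9 of the 10 mRNAs called higher (not FANCL) were not well above background on it. The count past 2.5-fold above GAPDH, 25, was 15 with normexp, 13 with quantile normalization, 8 of 14 with probes detected on all 4 arrays and 6 with the median gene as the reference, and ran from 6 (without total RNA replicate 2) to 28 with an array left out. No share of all genes stands beside these counts or beside the unadjusted counts of the alternatives. They therefore do not show whether the members moved apart from all genes. The median log2 ratio of the members, 0.29, was -0.17 with normexp (all genes -0.13) and 0.78 with quantile normalization (all genes 0.26). It was -0.53 with probes detected on all 4 arrays (all genes -0.35), and ran from -0.41 to 1.07 with an array left out. Normexp turned the log2 ratio of 8 members, to -0.34 for BRCA1, -0.61 for PALB2, -0.48 for MRE11, -0.24 for RAD50, -0.55 for WRN, -0.39 for FANCB, -0.089 for FANCM and -0.82 for MSH3. Quantile normalization turned PMS2 (0.12), no detection filter MSH6 (-0.17) and the brightest probe FANCA (0.54). With an array left out the log2 ratio ran from -1.30 to 1.96 for BRCA1, -0.65 to 1.07 for PALB2, -0.46 to 3.24 for XRCC2, -1.31 to 1.90 for MRE11, -0.20 to 1.47 for RAD50, -0.021 to 4.14 for RBBP8, -0.47 to 2.03 for EXO1, -1.06 to 3.09 for BLM, -1.28 to 2.15 for WRN, -0.19 to 0.32 for FANCB, -2.04 to 0.0096 for FANCG, -0.89 to 2.79 for FANCM, -0.87 to 0.93 for FANCI, -1.61 to 1.62 for MSH3 and -0.24 to 0.14 for PMS2. Leaving out total RNA replicate 2 turned 14 of these, and leaving out total RNA replicate 1 turned PMS2 (0.14). Without TIA1 RIP replicate 1, PALB2 (-0.06), MSH3 (-0.15) and PMS2 (0.09) also turned, and without TIA1 RIP replicate 2 FANCB (-0.19) did. The cause of these changes was not tested. What the replicate numbers mark is not stated in the sources. With 2 pairs they were not taken to pair the arrays, although deviations of same-numbered arrays correlated with r = 0.45 over all genes. A limma fit with the replicate block called 0 members (2 at an unadjusted p-value under 0.05, lowest adjusted p = 0.24 for RBBP8). It called 57 genes higher and 299 lower, so the 0 genes called over all genes depend on leaving the block out. With 2 arrays a group and 15 members not well above background on total RNA replicate 2, signal over background limits what can be said of these mRNAs.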
